A study of Mus musculus with 2 samples.

Results

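The 10 genes described here, *Trem2*, *Tyrobp*, *Apoe*, *Gpnmb*, *Spp1*, *Lpl*, *Cst7*, *Cd9*, *Fabp5* and *Lgals3*, are linked to the receptor *Trem2* in lipid-handling macrophages and microglia. They were taken by name from the 19465 genes of the probe panel, and all 10 were found in both sections. The rule named no measured value, but earlier results of these data were known when the 10 genes, the gene lists and the tests were chosen. The samples were 2 formalin-fixed sections of mouse cerebellum, 5 µm thick and described by the study as biological replicates, with breast cancer brain metastases (BCBM) and no treatment. The BCBM came from HP organoids, made from mouse mammary tumors with HER2 V777L, a human transgene under an actin promoter, and PIK3CA H1047R, started with Cre-expressing adenovirus in the mammary gland. The organoids were labeled with luciferase, dissociated and injected into the cerebellum of mice, which the study's methods describe as syngeneic C57BL/6J mice 5 months of age. This bypassed the steps by which a tumor spreads through the blood. The labels name the organoids of section 1 HP-F1 and those of section 2 HP-B6, and both carry the genotype HP and the cell line label B6-HP. Whether the strain of organoid or host differed between the sections cannot be told from the labels. There was no tumor-free section, and every comparison below is between regions of the same sections.

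*Trem2* is a surface receptor of macrophages and microglia that binds lipids and lipoproteins, ApoE among them. It has no signaling tail of its own and passes its signal through the adaptor *Tyrobp*, which recruits the kinase *Syk*. Where myelin or dying cells have to be cleared, microglia and macrophages that sense lipid through *Trem2* raise a shared set of genes for taking up, breaking down and storing lipid, and *Apoe*, *Lpl*, *Fabp5*, *Gpnmb*, *Spp1*, *Cst7*, *Cd9* and *Lgals3* are known members of that set. None of these genes is confined to macrophages: astrocytes make *Apoe*, epithelial cells make *Cd9* and *Lgals3*, and some neurons and glia make *Fabp5*. No lipid was measured in these sections.

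The assay was Visium CytAssist, where pairs of probes are ligated on mouse transcripts, transferred to a grid of spots with known barcodes and counted by their unique molecular identifiers (UMIs). A spot is a small area that can hold several cells. Levels are UMIs per 1000000 UMIs of the spots summed (CPM), and since the probes of different genes need not capture alike, levels are compared only within a gene. In such sums, fewer cells of a type and less RNA per cell cannot be told apart. Sections 1 and 2 held 63986887 and 71878333 UMIs over 3406 and 4017 spots, of which 91 and 18 spots were left out for low counts.

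Each section was divided into 4 regions without the use of any of the 10 genes. Tumor spots were those in which epithelial and collagen-type stromal markers outweighed neural markers, in a connected piece, and they formed 1 piece of 821 spots in section 1 and pieces of 870 and 103 spots in section 2. *Arg1*-high edge spots lay within 5 array steps of the tumor border, on either side, and held at least 3 UMIs and 500 CPM of *Arg1*, the arginase that the study follows at the invading edge. These were 240 spots in section 1 and 382 spots in section 2, and 133 and 239 of them lay on the tumor side. The tumor spots that were not *Arg1*-high numbered 688 and 699. The near neural spots, up to 5 steps outside the border, numbered 207 and 335, and the far neural spots 2155 and 2476. Another 25 and 107 spots were in no region. In section 2, 36 of these were *Arg1*-high spots more than 5 steps from the border, nearly all of them inside the tumor. *Arg1* chose the edge, so its levels there, 1103 CPM in section 1 and 1664 CPM in section 2, are no finding. The study uses *Arg1* as a macrophage marker, so this choice also favors other macrophage genes at the edge in every comparison below.

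The tumor of the 2 sections differed in its markers. The 10 epithelial markers summed to 11848 CPM in the tumor of section 2 and to 48.5 CPM in that of section 1, where the far neural tissue held 28.3 CPM and *Krt17* had no UMI in the edge and near neural spots. The 10 stromal markers, mostly collagens, summed to 64099 CPM in the tumor of section 1 and 3788 CPM in that of section 2. The tumor of section 1 is therefore a tumor by the rule used here but held epithelial markers at a level close to that of neural tissue, and values are given for each section throughout. Depth also differed with region, with a median of 56320 and 41923 UMIs per spot in the tumor against 7154 and 9442.5 UMIs in the far neural tissue.

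**Figure D1:**
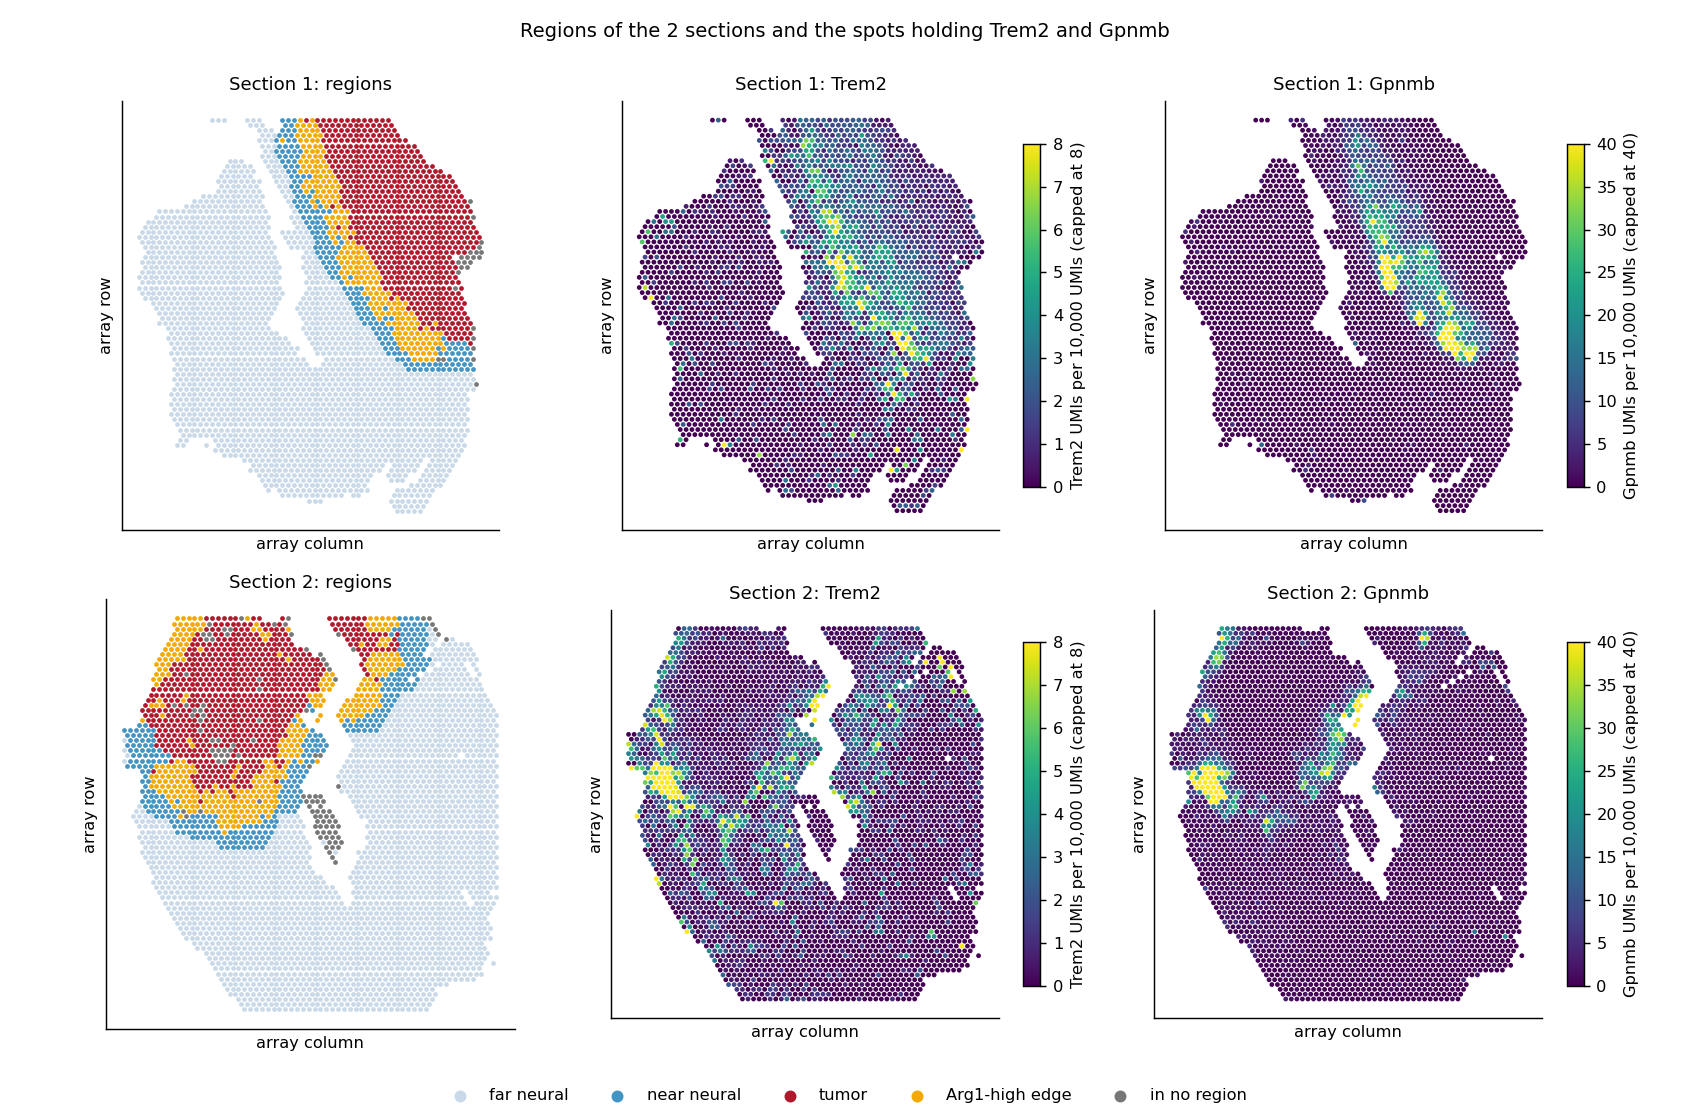
Each dot is 1 spot at its array column and row, in section 1 (top) and section 2 (bottom), colored by region (left) or by the UMIs of Trem2 (middle) or Gpnmb (right) per 10000 UMIs of the spot, with the color scale capped. Spots rich in Gpnmb lay in patches along the border in both sections, whereas Trem2 was also spread through the tumor of section 1.

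The receptor and its adaptor were most abundant at the edge in both sections. *Trem2* measured 343 CPM in section 1 and 288 CPM in section 2 in the edge spots, 247 and 184 CPM in the near neural spots, 179 and 58.1 CPM in the tumor, and 50.6 and 64.4 CPM in the far neural tissue. The edge values lay above those of the other 3 regions, and in section 2 the tumor held no more *Trem2* than the far neural tissue. *Tyrobp* measured 669 and 535 CPM at the edge, 407 and 278 CPM in the near neural spots, 475 and 119 CPM in the tumor, and 59.2 and 87.2 CPM in the far neural tissue. For both genes the sections differed most in the tumor, where section 1 held several times as much as section 2.

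For 7 of the 10 genes RefSeq promoter windows of build GRCm38.p6 were at hand, with 10 annotated starts in all. The 250 bases before each start were searched on both strands for the core GAGGAA bound by PU.1, a factor that macrophages and microglia depend on, for the AP-1 motif TGANTCA, the C/EBP motif TTGCNNAA, the E-box CACGTG bound by MiT/TFE lysosomal regulators and the related M-box TCACATGA. GAGGAA was present before 4 of the 10 starts, those of 3 genes, and in 23.4% of the 32536 promoter windows of this length. TGANTCA was present before 1 start and in 6.73% of all windows, and TTGCNNAA before 1 start and in 9.57% of all windows. CACGTG and TCACATGA were found before none of the 10 starts and in 6.04% and 0.851% of all windows. The windows of *Trem2* (chr17:48346151-48346400, plus strand) and of the upstream start of *Spp1* (chr5:104434861-104435110, plus strand) are shown as examples that hold the PU.1 core, one of the receptor itself and one of its partners. Both are read 5′ to 3′ up to the base before the start, capitals mark the motif matches, and no match overlapped another.
Trem2: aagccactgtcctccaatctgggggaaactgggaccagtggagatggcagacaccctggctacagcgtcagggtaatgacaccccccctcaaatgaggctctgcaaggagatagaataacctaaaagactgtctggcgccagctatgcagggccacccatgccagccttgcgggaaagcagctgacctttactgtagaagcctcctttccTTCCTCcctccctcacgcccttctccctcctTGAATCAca
Spp1: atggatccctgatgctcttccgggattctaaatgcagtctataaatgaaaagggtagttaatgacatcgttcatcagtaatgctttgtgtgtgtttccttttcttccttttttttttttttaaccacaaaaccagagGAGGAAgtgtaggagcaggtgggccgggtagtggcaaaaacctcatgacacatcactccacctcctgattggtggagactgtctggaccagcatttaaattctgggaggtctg
The match in *Trem2* begins 40 bases before the start and reads on the minus strand, with a TGANTCA match 9 bases before the start, and the match in *Spp1* begins 113 bases before the start. A match of so few letters describes the sequence alone, and *Tyrobp*, *Lpl* and *Fabp5* were not searched.

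Among the genes of lipid transport and uptake, *Lpl* and *Fabp5* separated the edge from the tumor most evenly. *Lpl*, the lipoprotein lipase that frees fatty acids from lipoproteins, measured 148 and 162 CPM at the edge, 111 and 65.8 CPM in the near neural spots, 30.9 and 20.9 CPM in the tumor, and 13.4 and 16 CPM in the far neural tissue. All edge and near values lay above all tumor and far values. *Fabp5*, a carrier of fatty acids within cells, measured 1469 and 871 CPM at the edge, 690 and 394 CPM in the near neural spots, 287 and 117 CPM in the tumor, and 183 and 209 CPM in the far neural tissue. Its tumor value lay above the far neural one in section 1 and below it in section 2. *Apoe*, the lipoprotein component that *Trem2* binds, measured 6236 and 8585 CPM at the edge, 4822 and 6849 CPM in the near neural spots, 5703 and 2192 CPM in the tumor, and 1716 and 2035 CPM in the far neural tissue. The edge and tumor of section 1 differed little in *Apoe* (1.09-fold), whereas those of section 2 differed 3.92-fold.

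*Gpnmb* and *Spp1* had the same order at the edge but differed in the other regions. *Gpnmb*, a membrane glycoprotein of lysosome-rich macrophages, measured 1807 and 1784 CPM at the edge, 695 and 408 CPM in the near neural spots, 404 and 126 CPM in the tumor, and 21.3 and 53.4 CPM in the far neural tissue. No other region reached the edge level in either section. *Spp1*, which encodes the secreted matrix protein osteopontin, measured 10133 and 11315 CPM at the edge, 2746 and 3548 CPM in the near neural spots, 4855 and 1401 CPM in the tumor, and 324 and 767 CPM in the far neural tissue. The tumor stood above the near neural spots in section 1 and below them in section 2.

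*Lgals3*, *Cd9* and *Cst7* each departed from that pattern. *Lgals3*, which encodes the sugar-binding protein galectin-3, measured 3259 and 1695 CPM at the edge, 831 and 346 CPM in the near neural spots, 1046 and 1047.1 CPM in the tumor, and 30.2 and 67.7 CPM in the far neural tissue. Its tumor level was nearly equal in both sections, although the epithelial markers were far higher in the tumor of section 2. *Cd9*, a tetraspanin that organizes membrane proteins, measured 415 and 506 CPM at the edge, 462 and 322 CPM in the near neural spots, 321 and 535 CPM in the tumor, and 109 and 160 CPM in the far neural tissue. Edge and tumor levels of *Cd9* overlapped between the sections. *Cst7*, which encodes cystatin F, an inhibitor of lysosomal cysteine proteases, measured 101 and 64.9 CPM at the edge, 92.4 and 111 CPM in the near neural spots, 27.5 and 11.5 CPM in the tumor, and 9.17 and 25.6 CPM in the far neural tissue. It was the one gene of the 10 with more in the near neural spots than at the edge in section 2.

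**Figure D2:**
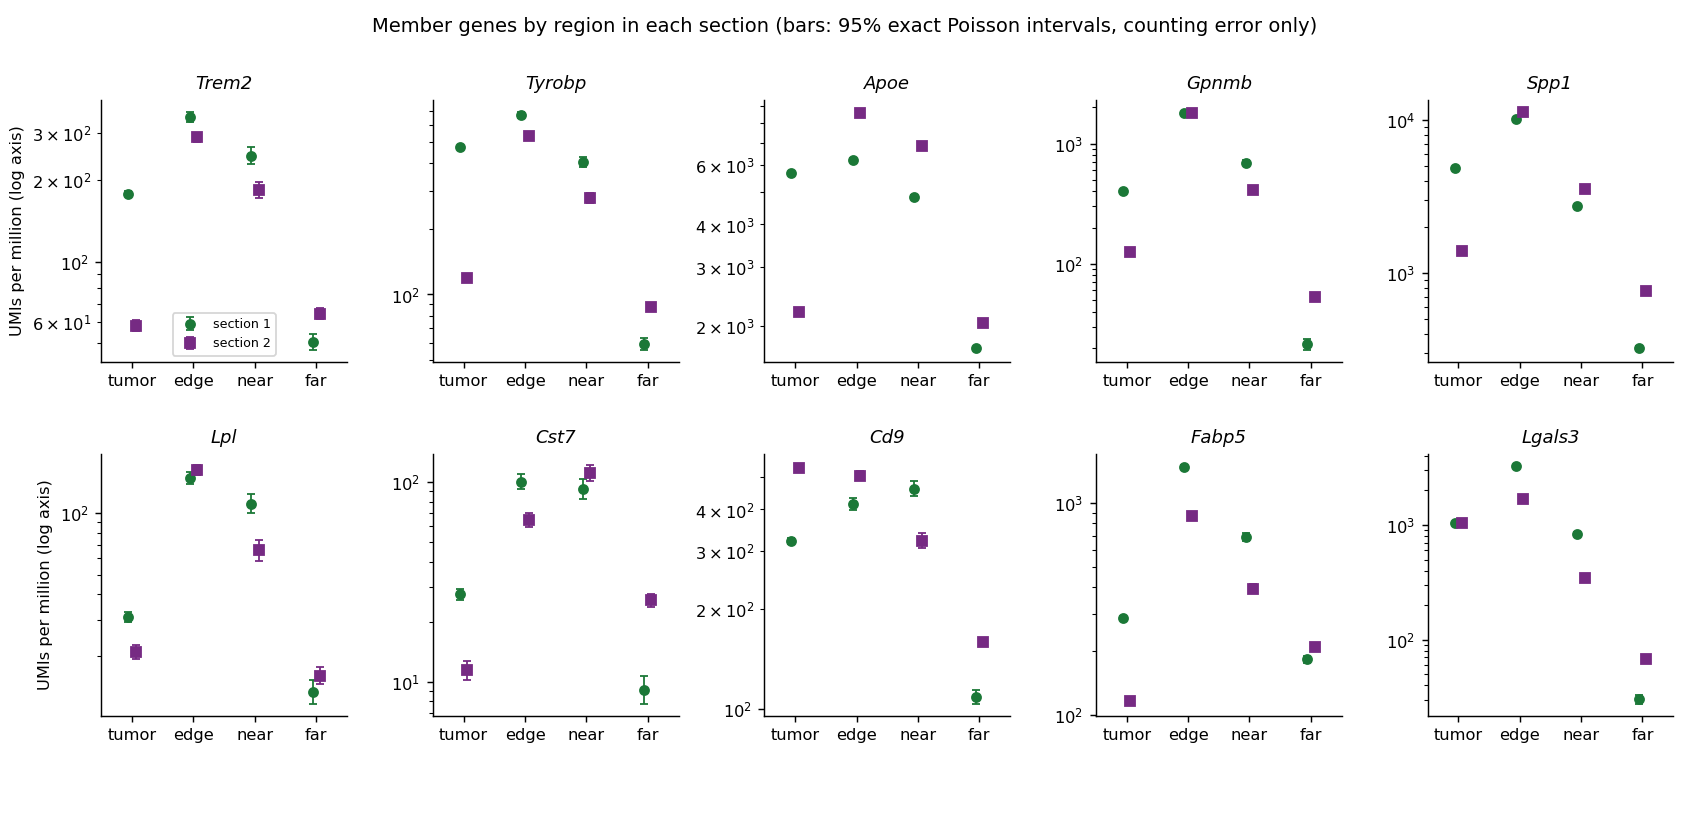
Points give the level of each gene in CPM (log axis) in the tumor, Arg1-high edge, near neural and far neural spots of section 1 (circles) and section 2 (squares), with 95% exact Poisson intervals that cover counting error only. The far neural tissue is lowest for all 10 genes in section 1. In section 2 it is lowest for all but Trem2, Cst7 and Fabp5, which are lower in the tumor. The edge is highest in both sections for Trem2, Tyrobp, Apoe, Gpnmb, Spp1, Lpl, Fabp5 and Lgals3. The sections stand furthest apart in the tumor for Trem2, Tyrobp, Apoe, Gpnmb, Spp1, Fabp5 and Cd9.

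Against the far neural tissue, 9 of the 10 genes rose at the *Arg1*-high edge, and all 10 were higher there in both sections. Choosing the edge by a macrophage marker favors macrophage genes there, and the part of this choice was not tested. For the tests, the spots of each region of each section were added up into 8 libraries, which went into edgeR's quasi-likelihood test with a block for the section. Calls are at a Benjamini-Hochberg adjusted p below 0.05 over 19129 genes. In this comparison 13.3% of all genes tested were called higher and 14.4% lower (27.8% in either direction). The median log2 fold change of the 10 genes was 2.87, against -0.07 over all genes. *Lgals3* and *Gpnmb* rose by 5.71 ± 0.75 and 5.67 ± 0.86 on the log2 scale (SE, 2 sections; adjusted p = 0.0052 and 0.0079), which were ratios in CPM of 108 and 25 for *Lgals3* and of 84.8 and 33.4 for *Gpnmb*. *Spp1* rose by 4.46 ± 0.83 (adjusted p = 0.015), *Lpl* by 3.56 ± 0.35 (adjusted p = 0.0025), *Tyrobp* by 3.11 ± 0.65 (adjusted p = 0.020) and *Trem2* by 2.57 ± 0.51 (adjusted p = 0.018). *Fabp5*, *Apoe* and *Cd9* rose by 2.63 ± 0.41, 2.15 ± 0.56 and 1.96 ± 0.34 (adjusted p = 0.0081, 0.039 and 0.011). With the near and far neural spots summed, the calls of *Trem2* (adjusted p = 0.056), *Tyrobp* (0.058) and *Apoe* (0.12) were lost, and that of *Apoe* also with 1 Otsu threshold for both sections (0.053). *Cst7* was 2.37 ± 0.70 higher and was not called (adjusted p = 0.057), with ratios of 11 in section 1 and 2.53 in section 2.

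Against the tumor, *Lpl* and *Fabp5* alone were called at the edge, where 3.2% of all genes tested were called higher and 0.0889% lower (3.29% in either direction). *Lpl* rose by 2.47 ± 0.33 on the log2 scale (adjusted p = 0.021), 4.78-fold in CPM in section 1 and 7.77-fold in section 2. *Fabp5* rose by 2.45 ± 0.40 (adjusted p = 0.040), 5.12-fold and 7.43-fold. *Gpnmb* had the largest difference of the 10, 2.69 ± 0.75, but its sections were far apart, at 4.47-fold and 14.1-fold, and it did not pass the test (adjusted p = 0.18). The same spread between sections marked *Trem2*, at 1.92-fold and 4.96-fold (log2 fold change 1.38 ± 0.49, adjusted p = 0.28), *Tyrobp*, at 1.41-fold and 4.50-fold (1.02 ± 0.61, adjusted p = 0.49), and *Spp1*, at 2.09-fold and 8.07-fold (1.62 ± 0.75, adjusted p = 0.39). *Cst7* (1.95 ± 0.67) and *Lgals3* (1.07 ± 0.61) were higher in both sections without a call (adjusted p = 0.27 and 0.47). *Apoe*, at 0.77 ± 0.55, and *Cd9*, at 0.00 ± 0.34, had opposite signs in the 2 sections after scaling (adjusted p = 0.56 and 0.9995), and the fitted sign of *Cd9* turned with the scaling by library size alone, to 0.13. The median over the 10 genes was 1.5, against -0.04 over all genes. With the 2 neural regions summed, no gene was called in this comparison, *Lpl* and *Fabp5* included, and without the section block or with an *Arg1* minimum of 250 CPM the call of *Fabp5* was lost. Markers of the surrounding tissue differed here as well, since 10 of 15 neural markers and 5 of 7 oligodendrocyte markers rose at the edge against the tumor and none of the 12 macrophage markers was called, and their part in the result was not tested.

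Against the far neural tissue, the tumor had more of 5 of the 10 genes, where 19.7% of all genes tested were called higher and 19.8% lower (39.4% in either direction). With library size as the only scaling those counts went from 3760 higher and 3784 lower to 2680 higher and 5780 lower, and the median of all genes from -0.13 to -0.43. *Lgals3* rose by 4.65 ± 0.71 on the log2 scale (adjusted p = 0.0052), *Gpnmb* by 2.98 ± 0.79 (adjusted p = 0.032) and *Spp1* by 2.84 ± 0.81 (adjusted p = 0.041). *Cd9* rose by 1.96 ± 0.33 (adjusted p = 0.0073) and *Lpl* by 1.08 ± 0.32 (adjusted p = 0.044). The call of *Lpl* was lost in 8 of 14 alternatives, with an adjusted p of up to 0.34 and a log2 fold change down to 0.31. *Tyrobp* stood just outside the threshold (2.09 ± 0.64, adjusted p = 0.0502), with ratios of 8.03 in section 1 and 1.36 in section 2. The ratio of *Trem2* was 3.53 in section 1 and 0.901 in section 2 (1.19 ± 0.50, adjusted p = 0.11) and that of *Apoe* 3.32 and 1.08 (1.38 ± 0.56, adjusted p = 0.10). *Cst7* and *Fabp5* had opposite signs in the 2 sections, with ratios of 3.0 and 0.448 for *Cst7* and of 1.57 and 0.562 for *Fabp5* (adjusted p = 0.63 and 0.73). The 5 calls became 3 with an *Arg1* minimum of 250 CPM or without the spots that touch the border, 2 with the neural regions summed and 8 in DESeq2. Over all genes these fits called, in that order, 7203 of 19192, 7439 of 19128, 6036 of 19227 and 8443 of 17884.

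Between near and far neural tissue all 10 genes were higher near the tumor in both sections, but edgeR called none of them and no gene of the 19129 tested (0% called). At an unadjusted p below 0.05 the same fit counted 3753 genes and all 10 members, whose fitted log2 differences ran from 1.27 for *Fabp5* to 3.68 for *Gpnmb* and whose adjusted p ran from 0.064 to 0.20. DESeq2 called all 10 members in this comparison, beside 1906 of the 14502 genes to which it gave an adjusted p. Ratios in CPM in sections 1 and 2 were 4.87 and 2.86 for *Trem2*, 32.6 and 7.65 for *Gpnmb* and 10.1 and 4.34 for *Cst7*. The ratio was larger in section 1 for each of these 3 genes, and for *Apoe* it was larger in section 2, at 2.81 and 3.37. The near neural spots also held more of the tumor markers. The stromal markers summed to 2863 and 991 CPM near and 621 and 257 CPM far, and the epithelial markers to 37.7 and 753 CPM near and 28.3 and 175 CPM far. The part of mixed tumor material in these differences was not tested.

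**Figure D3:**
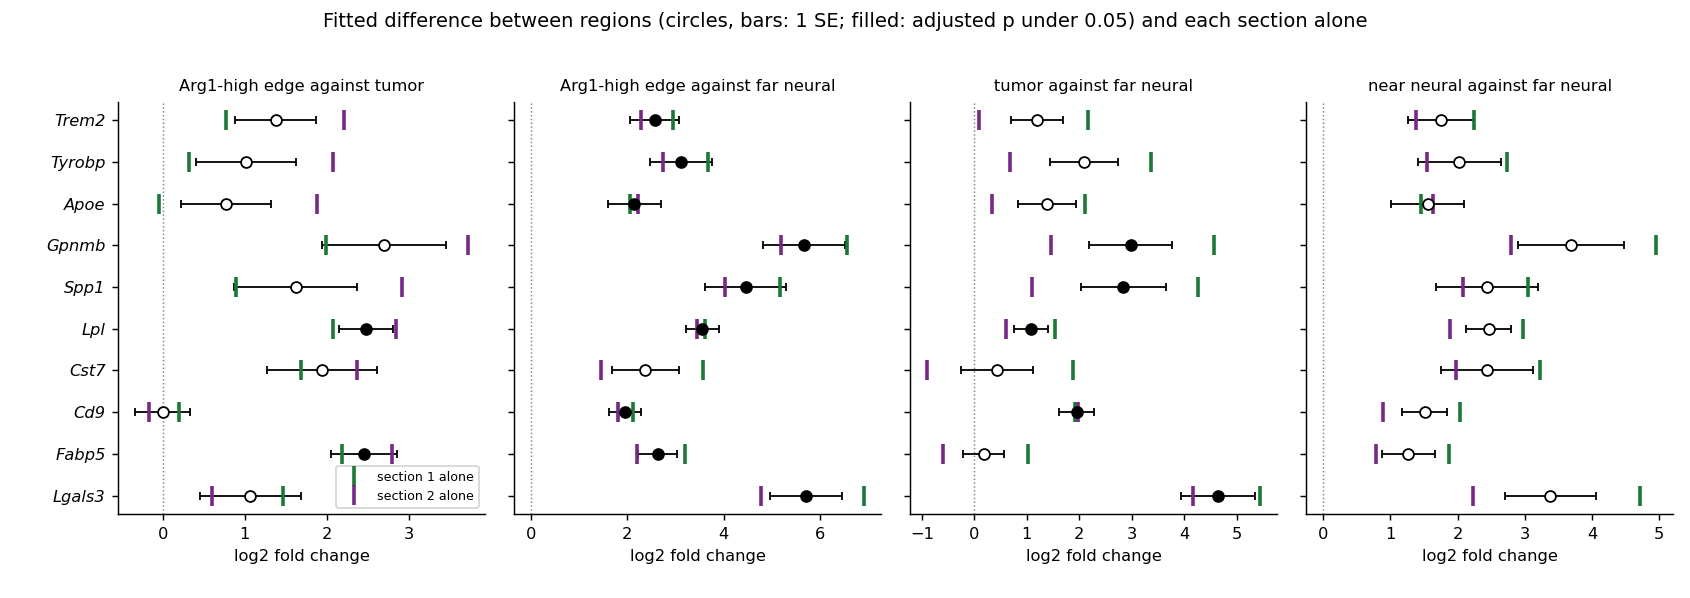
Circles give the fitted log2 fold change of each gene in the 4 comparisons with bars of 1 SE, filled where the adjusted p was below 0.05, and ticks give each section alone. Filled circles number 2, 9, 5 and 0 from left to right, and the ticks of the 2 sections lie far apart in the comparisons that include the tumor for Trem2, Tyrobp, Apoe, Gpnmb and Spp1.

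Distance from the border was counted in steps on the hexagonal array, negative inside the tumor, for all spots whatever their *Arg1*. *Trem2* was highest in the first spots outside the border, at 378 CPM in section 1 (95% exact Poisson interval 344 to 414) and 387 CPM in section 2 (360 to 416), and was at 27.3 and 45.9 CPM at 13 or more steps. The 2 sections met at the border and parted inside the tumor, where at 6 or more steps *Trem2* was at 170 CPM in section 1 and 36.5 CPM in section 2. *Gpnmb* also peaked in that first step, at 1578 and 2133 CPM, and was at 80.5 and 113 CPM at steps 6 to 8. The band outside the tumor was narrower in section 2, where steps 2 to 3 held 476 CPM against 1462 CPM in section 1.

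Of the 10 genes, *Trem2*, *Tyrobp*, *Apoe*, *Gpnmb* and *Fabp5* had their highest level in the first step outside the border in both sections. *Lpl* peaked at steps 2 to 3 in section 1 (202 CPM) and at step 1 in section 2 (186 CPM), *Spp1* at step -1 in section 1 (9141 CPM) and at step 1 in section 2 (11603 CPM), and *Lgals3* at step 1 in section 1 (2715 CPM) and at step -1 in section 2 (1647 CPM). *Cst7* peaked at step 1 in section 1 (142 CPM) and at steps 2 to 3 in section 2 (115 CPM). *Cd9* alone had no peak at the border in section 2, where its level was higher with each bin inward, up to 559 CPM at 6 or more steps inside, and in section 1 it was highest at steps 4 to 5 outside (487 CPM). These profiles describe the spots of 1 section each and were not tested.

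**Figure D4:**
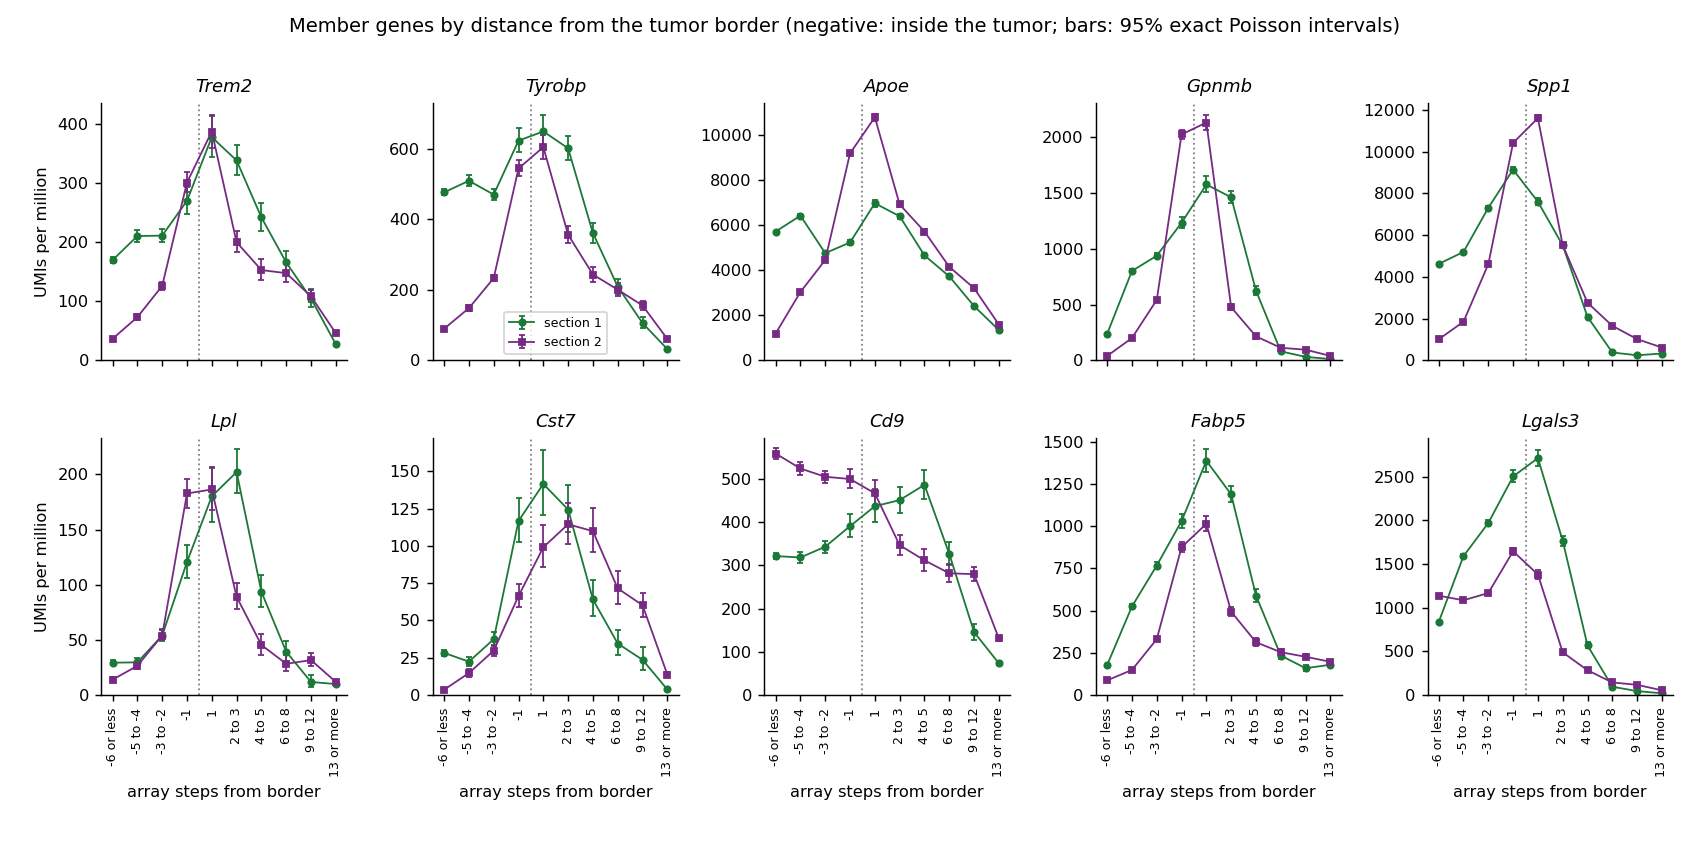
Lines give the level of each gene in CPM by array steps from the tumor border in section 1 (circles) and section 2 (squares), negative inside the tumor, with 95% exact Poisson intervals and a dotted line at the border. Trem2, Tyrobp, Apoe, Gpnmb and Fabp5 peak at step 1 in both sections, and Cd9 of section 2 is highest deep inside, at 559 CPM.

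Within the same range of steps, *Arg1*-high spots held more of most of these genes than the other spots. The steps of a range were pooled, so distance was matched only in part: in section 2 *Gpnmb* was at 2133 CPM at step 1 and 476 CPM at steps 2 to 3. The spots were chosen by *Arg1*, which the study uses as a macrophage marker, and their macrophage content was not matched. At 1 to 3 steps outside the border, *Trem2* was at 463 CPM in the 103 *Arg1*-high spots of section 1 and 264 CPM in the 85 near neural spots, and at 428 CPM in the 132 *Arg1*-high spots of section 2 and 208 CPM in the 181 near neural spots. *Gpnmb* differed more, at 2216 against 917 CPM in section 1 and 2359 against 575 CPM in section 2. *Cst7* was at 149 against 125 CPM in section 1 and at 106 against 112 CPM in section 2, so that it did not separate the spots in section 2. At 1 to 3 steps inside the border, *Fabp5* was at 1359 against 411 CPM in section 1 and 952 against 177 CPM in section 2. *Cd9* was at 500 against 507 CPM there in section 2. Within the edge, *Lpl* was at 266 and 218 CPM in the spots outside the tumor and at 102 and 150 CPM in those inside, whereas *Spp1* was lower outside in section 1 (9062 against 10546 CPM) and higher outside in section 2 (14858 against 10507 CPM). These values likewise describe single sections and were not tested.

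*Arg1*, which chose the edge, is itself a macrophage marker in the study, so the choice favored other macrophage markers there in advance. The edge also held more of general macrophage markers than the far neural tissue, with 8 of 12 called higher, beside 13.3% of all genes tested. Among them were the lysosomal protein *Cd68* (4.10 ± 0.71, adjusted p = 0.012) and the Fc receptor chain *Fcer1g* (2.95 ± 0.77, adjusted p = 0.040). The levels of the 10 genes were therefore set beside these markers, and examples that went different ways are given. The 12 macrophage markers summed to 9445 and 6193 CPM at the edge, 8564 and 2038 CPM in the tumor, 6750 and 5233 CPM in the near neural spots and 1171 and 1808 CPM in the far neural tissue, and none of the 12 was at 0 in any region. Per 100 UMIs of these markers, *Gpnmb* stood at 19.1 and 28.8 UMIs at the edge, 10.3 and 7.80 in the near neural spots, 1.82 and 2.95 in the far neural tissue and 4.72 and 6.20 within the tumor. *Gpnmb* thus differed between regions also relative to the markers, in the same order in both sections. *Trem2* differed less, at 3.63 and 4.65 UMIs at the edge and 3.65 and 3.52 in the near neural spots. It stood at 2.09 and 2.85 within the tumor and 4.32 and 3.56 in the far neural tissue. *Fabp5* stood at 15.6 and 14.1 UMIs at the edge and 3.35 and 5.76 in the tumor, but at 15.6 and 11.5 in the far neural tissue. *Spp1* was higher at the edge (107 and 183) than in the near neural spots (40.7 and 67.8). *Cst7* was lower at the edge (1.07 and 1.05) than in the near neural spots (1.37 and 2.12). *Apoe* stood at 66.0 and 139 UMIs at the edge and 146 and 113 in the far neural tissue. These ratios depend on the marker list. Without *C1qa*, *C1qb* and *C1qc*, *Fabp5* stood at 37.4 and 37.4 UMIs at the edge and 51.6 and 31.5 in the far neural tissue. *Trem2* then stood at 8.73 and 12.4 at the edge, 10.9 and 9.34 in the near neural spots and 14.3 and 9.71 in the far neural tissue. *Gpnmb* kept its order of regions in both sections. Other cell types moved with the regions too: the 11 homeostatic microglia markers summed to 1994 and 1192 CPM at the edge, 2132 and 1798 CPM in the near neural spots and 621 and 886 CPM in the far neural tissue, and the edge held 4782 and 3517 CPM of the neural markers against 423 and 587 CPM in the tumor. The 5 monocyte markers summed to 389 and 151 CPM at the edge and 58.6 and 52.5 CPM in the far neural tissue, and the 7 neutrophil markers to 104 and 123 CPM and to 27.3 and 40.3 CPM. The 6 T cell markers reached 262 CPM in the tumor of section 1 and 9.78 CPM in that of section 2. The part of these cell types in the differences above was not tested.

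Across all spots, the genes most like *Trem2* were macrophage genes. Likeness was the lower of the 2 sections' Pearson correlations across spots, on the scale ln(1 + UMIs per 10000), over 9699 genes with at least 1000 UMIs in each section, and it is given as a description, since spots share depth and tissue makeup. Apart from the 10, the nearest genes were the complement components *C1qa* (r = 0.63 in section 1 and 0.61 in section 2), *C1qc* (0.66 and 0.61) and *C1qb* (0.64 and 0.58) and the lysosomal proteases *Ctss* (0.66 and 0.60) and *Ctsb* (0.64 and 0.60). *Apoe* ranked 5, *Gpnmb* 9, *Tyrobp* 13 and *Spp1* 20, and *Lpl*, *Fabp5* and *Cst7* ranked 47, 48 and 52. *Lgals3* and *Cd9* ranked 175 and 263. The rank of *Lgals3* came from section 2, since its r was 0.68 in section 1 and 0.31 in section 2. For *Cd9* r was 0.50 and 0.26. The genes most like *Cd9* were of another kind, with *Arpc1b*, of the actin machinery (0.63 and 0.63), first and *Lgals3* (0.60 and 0.61) among the first 5.

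The way the 10 genes went together across spots differed by region and section. The median correlation over their 45 pairs was 0.52 in section 1 and 0.45 in section 2 over all spots, 0.32 and 0.43 in the edge spots, 0.49 and 0.30 in the near neural spots, and 0.09 and 0.49 in the tumor. In the far neural tissue, where counts were sparse, it was 0.12 and 0.24. In the tumor of section 2, *Cd9* was negatively correlated with *Trem2* (-0.31) and positively with the summed epithelial markers (0.48), and so was *Lgals3* (-0.18 and 0.36). In the tumor of section 1, where those markers were low, *Cd9* was also negatively correlated with *Trem2* (-0.26) and *Gpnmb* (-0.25). There *Lgals3* followed *Trem2* (0.69), *Gpnmb* (0.88) and *Fabp5* (0.87). *Spp1* went the other way, with -0.17 to *Trem2* in the tumor of section 1 and 0.69 in that of section 2. Among the tumor spots of section 1, levels were higher at 1 to 3 steps inside than at 6 or more for *Gpnmb* (525 against 238 CPM), *Fabp5* (411 against 178 CPM) and *Lgals3* (1139 against 835 CPM). *Trem2* was at 169 against 170 CPM. The neural genes *Mbp* and *Gfap* ranked 8 and 13 in likeness to *Trem2* across tumor spots. The part of depth and of mixed neural tissue in these correlations was not tested. In the edge spots *Trem2* followed the macrophage markers in both sections (0.67 and 0.75), and *Cd9* did not (0.12 and 0.10).

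**Figure D5:**
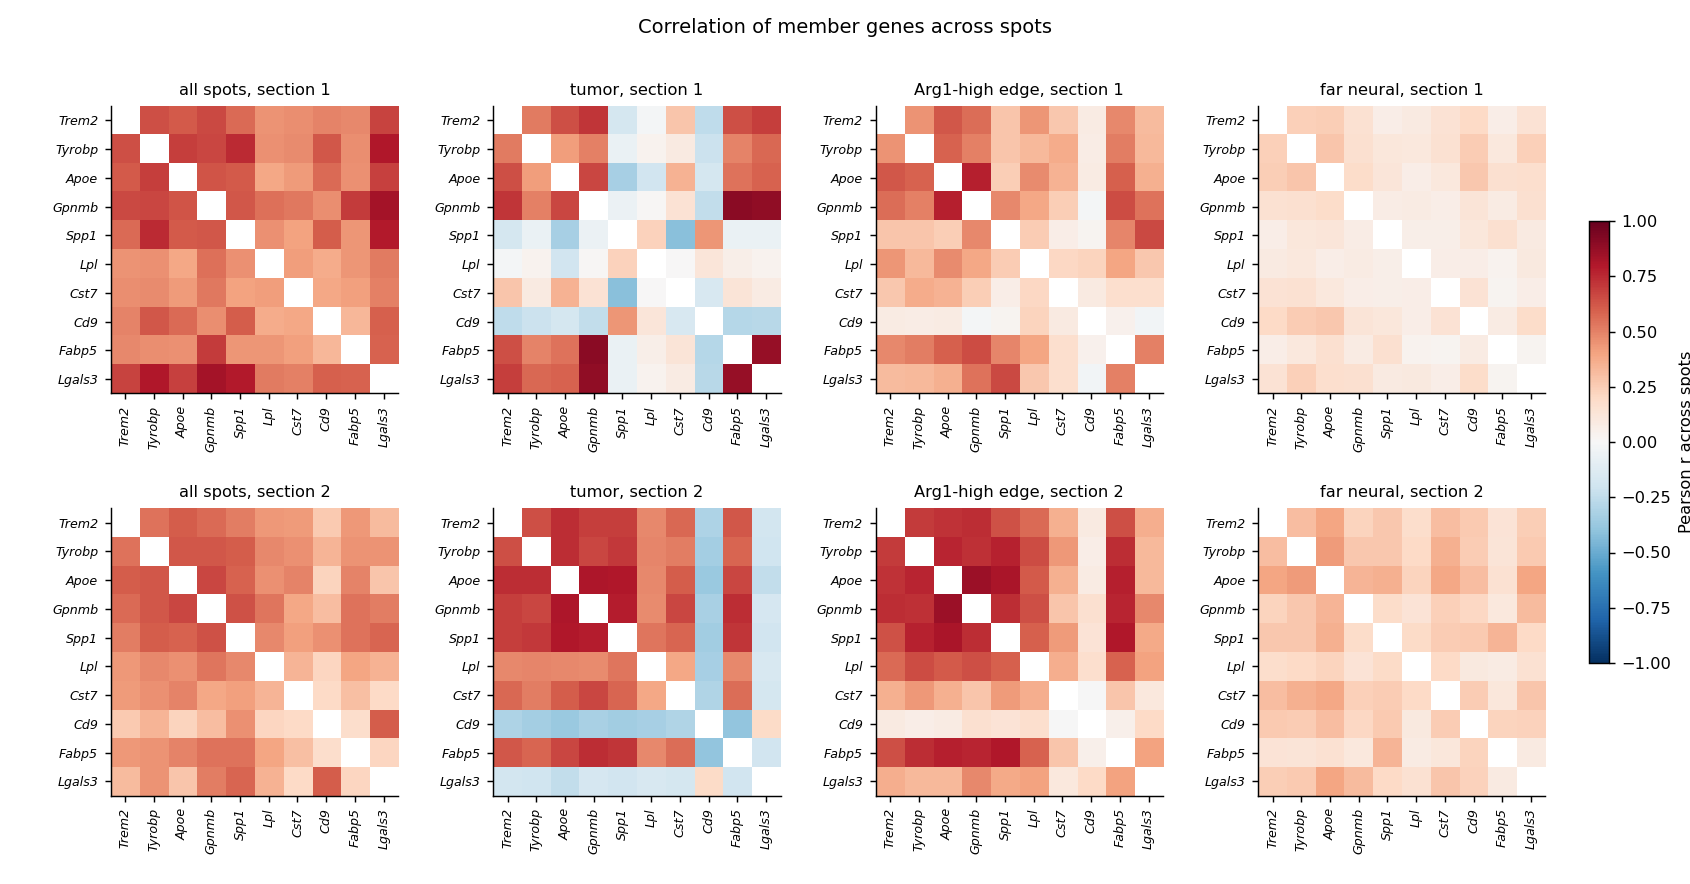
Each square is the Pearson correlation across spots of 2 of the 10 genes, on a color scale from -1 to 1, in all spots, tumor, Arg1-high edge and far neural spots of section 1 (top) and section 2 (bottom). Cd9 and Lgals3 stand apart in the tumor of section 2, and Spp1, Lpl and Cd9 in that of section 1.

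Of the 15 genes listed for *Trem2* and *Tyrobp* signaling other than the pair itself, 8 rose at the edge against the far neural tissue and none fell, with a median log2 fold change of 1.97, beside 13.3% of all genes called higher, 14.4% called lower and a median of -0.07 over all genes. *Cd300lb*, an activating receptor that can signal through *Tyrobp*, rose by 3.41 ± 0.24 on the log2 scale (adjusted p = 0.0017) and *Syk*, the kinase recruited by *Tyrobp*, by 2.95 ± 0.59 (adjusted p = 0.018). *Plcg2*, *Hcst*, *Clec5a*, *Trem1*, *Treml2* and *Adam17*, a protease that can shed *Trem2* from the cell surface, were the other 6. Against the tumor, *Cd300lb* was the one gene of this list called at the edge (1.79 ± 0.23, adjusted p = 0.018), beside 3.2% of all genes called higher. In the tumor against the far neural tissue, where 19.7% of all genes were called higher, 6 of the 15 rose, among them *Plcg2* (3.34 ± 0.34, adjusted p = 0.0013) and *Clec5a* (2.78 ± 0.57, adjusted p = 0.014), and *Siglech*, a receptor of resting microglia, fell by 3.01 (SE 0.86, adjusted p = 0.041). In sections 1 and 2 alone, *Plcg2* rose by 2.81 and 3.75 and *Clec5a* by 3.70 and 1.53. *Plcg2* thus rose more in section 2, whereas *Trem2* (2.18 and 0.08) and *Tyrobp* (3.36 and 0.68) rose more in section 1. Which cells held *Plcg2* was not tested.

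Other genes known from disease-associated microglia rose at the edge as well. Of the 18 listed, 16 were used here, and 11 of these rose at the edge against the far neural tissue, with a median of 2.73, beside 13.3% of all genes called higher and a median of -0.07 over all genes. The chemokine *Ccl6* rose by 5.71 ± 0.53 (adjusted p = 0.0024) and the integrin *Itgax* by 4.23 ± 0.52 (adjusted p = 0.0042), and the others were the lysosomal proteases *Ctsb*, *Ctsd*, *Ctsl* and *Ctsz*, the chemokines *Ccl3* and *Ccl4*, and *Cd63*, *Lyz2* and *Timp2*. Against the tumor, *Ccl6* (3.39 ± 0.48, adjusted p = 0.026), *Ctsl* (2.40 ± 0.39, adjusted p = 0.039) and *Ccl3* were called higher, beside 3.2% of all genes. The rise was not confined to the edge. In the tumor against the far neural tissue, 10 of the 16 rose, beside 19.7% of all genes called higher. Among them were *Itgax* (3.83 ± 0.51, adjusted p = 0.0033) and *B2m* (2.72 ± 0.79, adjusted p = 0.042). Of the 11 markers of homeostatic microglia, 7 had a fold change above 0 at the edge against the far neural tissue. *Fcrls* alone rose there (1.77 ± 0.21, adjusted p = 0.0036), against 13.3% of all genes called higher. Their difference from the list above was not tested. Against the tumor, *Sall1*, a factor that keeps microglial identity, was the one marker of these 11 that rose at the edge (1.76 ± 0.26, adjusted p = 0.027), beside 3.2% of all genes. In the tumor *Sall1* fell by 2.19 against the far neural tissue (SE 0.26, adjusted p = 0.0021).

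Among 25 further genes of lipid uptake, storage and efflux, 12 rose at the edge against the far neural tissue and 1 fell, beside 13.3% of all genes called higher and 14.4% called lower. The scavenger receptors *Cd36* and *Msr1* rose by 5.71 ± 0.82 (adjusted p = 0.0067) and 5.04 ± 0.64 (adjusted p = 0.0049) on the log2 scale. The others were the cholesterol exporters *Abca1* and *Abcg1*, the apolipoproteins *Apoc1* and *Apoc2*, the lipid droplet coat gene *Plin2*, the cholesterol ester enzyme *Soat1*, the lysosomal lipase *Lipa*, the lysosomal cholesterol carrier *Npc2*, *Scarb1* and *Fabp4*. *Fabp3*, the fatty acid carrier named for heart and muscle, fell by 1.47 (SE 0.21, adjusted p = 0.0066). Against the tumor, *Fabp4* (3.06 ± 0.41, adjusted p = 0.021), *Fabp3* (1.95 ± 0.22, adjusted p = 0.014) and *Apoc1* rose at the edge, beside 3.2% of all genes called higher. Of the tumor, edge and far neural tissue, *Fabp3* was highest in the far neural tissue. In the tumor against the far neural tissue, 9 of the 25 rose, beside 19.7% of all genes, with *Msr1* (3.73 ± 0.62, adjusted p = 0.0070) and *Apoc2* (3.34 ± 0.61, adjusted p = 0.0096) first, and *Fabp3* fell by 3.43 (SE 0.23, adjusted p = 0.00038), *Vldlr*, a lipoprotein receptor, by 2.52 (SE 0.33, adjusted p = 0.0030) and *Dgat2*, an enzyme of triglyceride synthesis, as well.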

How the data were processed

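The deposited matrices held UMI counts per gene and spot under tissue, made by the authors with Space Ranger 2.1.1 on mm10, and no normalized values were used. The 2 sections were the replicates, numbered in the labels, and spots of 1 section were not treated as replicates. The 10 genes, the gene lists and the tests were chosen with earlier results of these data known. Spots under 500 UMIs or 10 genes were left out. Regions came from an Otsu threshold in each section on the log2 ratio of tumor to neural marker counts, pieces of at least 20 spots and Arg1. Counts were summed by section and region (3182034 to 37593166 UMIs) and tested in edgeR 4.0.16 (R 4.3.3) with TMM scaling, the section as a block and 3 residual degrees of freedom, which was first checked on simulated counts. DESeq2 1.42.0 was run as an alternative, beside other scalings, filters, region limits and spot minimums. Correlations and exact Poisson intervals, which cover counting error only, were computed with numpy 2.4.6 and scipy 1.17.1. The text names the 10 genes, Arg1, up to 2 called genes per list and direction with the largest fold change, all called genes of the pathway and microglia lists at the edge, and the 5 genes most like Trem2. The sections share 3096 barcodes, which are array positions and not cells. Promoter sequences are from RefSeq (GRCm38.p6).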

Additional observations from a re-analysis of the deposited data

How the results depend on the processing

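Over up to 14 alternatives per comparison, 494 of 550 single values of the 10 genes kept their direction and their side of the threshold, 25 passed it anew, 20 no longer passed it and 11 turned in sign. The sections carry the same replicate number in all 4 regions, so the section was the block: without the replicate block 1 of the 10 genes was called at the edge against the tumor instead of 2, and no other count of calls among the 10 moved by more than 1.5 times. That count was also 1 with an Arg1 minimum of 250 CPM and 0 with near and far neural spots summed, where the count over all genes went from 630 to 0. DESeq2 called 3 of the 10 there, beside 1368 of 14502 genes. Against the far neural tissue, the edge had 5312 called genes and 3424 with the neural spots summed. For the tumor against the far neural tissue, 5 of the 10 became 8 in DESeq2 (beside 8443 of 17884 genes), 3 with an Arg1 minimum of 250 CPM, 3 without spots that touch the border and 2 with the neural spots summed. Near against far neural tissue, the count of 0 became 10 of the 10 and 1906 of 14502 genes in DESeq2, and 1 of the 10 and 372 of 19050 genes with an Arg1 minimum of 1000 CPM.

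Gpnmb at the edge against the tumor passed the threshold in DESeq2 and with near neural spots limited to 1 to 3 steps. Cd9 at the edge against the tumor, near 0 throughout, turned positive with library size only (0.13), an Arg1 minimum of 1000 CPM (0.074), 1 Otsu threshold for both sections (0.00065), no UMI minimum for tumor spots (0.0046), the neural spots summed (0.0073) and without the smaller tumor piece (0.0020), a setting chosen after seeing the data. In the tumor against the far neural tissue, Cst7 turned to -0.0052 with near spots at 1 to 3 steps and to -0.44 with the neural spots summed, and Fabp5 to -0.12 with library size only, with an Arg1 minimum of 250 CPM and with the neural spots summed. The cause was not tested. Leaving out either section leaves the other section's own value, which is given in the report and has no test.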

Other observations

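In section 2, 36 Arg1-high spots lay more than 5 steps from the tumor border and belonged to no region. Nearly all of them lay inside the tumor: of the 345 spots at 6 or more steps inside, 310 were in the tumor region, and the rest were Arg1-high. The 36 spots held 57.8 CPM of Trem2, 111 CPM of Gpnmb, 143 CPM of Fabp5 and 581 CPM of Cd9, and section 1 had no such spot. These values are near those of the 699 tumor spots of section 2, which lay at all depths, and, apart from Cd9, well under those of its edge spots. The 310 tumor spots at 6 or more steps inside held less, at 34.2 CPM of Trem2, 31.8 CPM of Gpnmb and 80.6 CPM of Fabp5. For Cd9 they held 557 CPM, and its 95% exact Poisson intervals overlapped. These differences were not tested.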
